A study of Mus musculus with 8 samples.

Results

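The 10 genes described here encode the 3 peroxisome proliferator-activated receptors (Ppara, Ppard, Pparg), the 3 retinoid X receptors (Rxra, Rxrb, Rxrg), the PGC-1 coactivators (Ppargc1a, Ppargc1b), the p160 coactivator Ncoa1 and the corepressor Ncor1. They were chosen by gene name among the non-control spots of each array, which gave 10 of 27962 gene names, with 21 probes on 39 spots.

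PPARs are nuclear receptors for fatty acids and related ligands, and they bind DNA as heterodimers with an RXR. Without an agonist such dimers can hold corepressors such as NCoR1, and ligand binding exchanges these for coactivators, among them SRC-1 (Ncoa1) and the PGC-1 proteins. Phthalate monoesters formed from DEHP in the body are known PPAR ligands in rodents, and in liver the PPARalpha pathway is the classical route of peroxisome proliferation.

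The 2 groups were DEHP-treated mice, given di-(2-ethylhexyl)-phthalate at 200 mg/kg/day in corn oil, and vehicle-treated mice, given corn oil alone, both by daily gavage for 21 days. All were male C57BL/6J mice, 18 weeks old when treatment began and 21 weeks old by label, with 4 mice per group. RNA came from 1 laser capture cap per mouse taken over areas rich in Sertoli cells, the somatic cells that carry the germ cells, in the right testis, and was amplified in 2 rounds. The tissue label names the intermediate layer of the seminiferous epithelium, whereas the extraction protocol in the labels speaks of Leydig cells. Each DEHP mouse was hybridised with 1 vehicle mouse on 2 arrays with the dyes swapped: pairs 1 to 4 are numbered by their DEHP mouse, and their partners were vehicle mice 2, 3, 4 and 1 in that order. Slide 1 carried the 4 arrays on which the DEHP RNA was labelled with Cy5, and slide 2 the 4 swapped ones, so dye orientation and slide cannot be told apart.

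Of all spots, 49.8% to 59.5% per channel were well above background. Among probes above background in all 16 channels, the spread of the log2 ratios (median absolute deviation) was 0.21 to 0.28 per array. Of 29 Sertoli cell markers, 20 had a probe above background in all 16 channels and 2 had none in any. Over all gene probes of the array these shares were 44.7% and 31.8%, counted by probe and not by gene. The germ cell lists were also detected, with 16 of 17 spermatocyte and 14 of 14 elongating spermatid markers tested. Leydig cell markers were present too: 9 of 14 were above background in all 16 channels, and their mean log2 level ranged from 9.01 to 9.92 over the DEHP mice and from 8.89 to 9.88 over the vehicle mice. In such mixed material, fewer cells of a type and less RNA per cell cannot be told apart.

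Probes of 4 genes carry the detection and coregulator results below and are shown 5′ to 3′ as the array design gives them, with positions in mm7. The Ppard probe, at chr17:26486311-26486370 on the plus strand, is the only one for the receptor whose detection followed the slide. The Rxrb probe shown, whose 60 bases span 175 genomic bases at chr17:32115588-32115762 on the plus strand, was near background while the other Rxrb probe was not. The Ncoa1 probe, at chr12:4175903-4175962 on the minus strand, has capitals marking codons of an LXXLL box, the short helix by which coactivators dock on nuclear receptors. The Ncor1 probes lie on the minus strand at chr11:62399540-62400934, where 60 bases span 1395 genomic bases, and at chr11:62402705-62402764, where capitals mark codons of a CoRNR box, the corresponding docking motif of corepressors.
Ppard A_51_P271556: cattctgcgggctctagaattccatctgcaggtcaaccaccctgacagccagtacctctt
Rxrb A_51_P314830: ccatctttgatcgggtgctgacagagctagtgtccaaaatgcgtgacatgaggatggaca
Ncoa1 A_51_P502888: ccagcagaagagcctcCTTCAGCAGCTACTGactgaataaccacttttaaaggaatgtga
Ncor1 A_52_P561934: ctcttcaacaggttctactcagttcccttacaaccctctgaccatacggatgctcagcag
Ncor1 A_52_P561927: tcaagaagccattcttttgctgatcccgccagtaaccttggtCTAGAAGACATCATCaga
LXXLL codons occur, in any forward frame, in 6.64% of the 41174 array probes and CoRNR box codons in 4.86%, so a match on its own is common and is given as a description of these probes. Both boxes stand 15 bases long, at probe positions 17 to 31 in Ncoa1 and 43 to 57 in Ncor1, counted from the 5′ end.

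Transcripts of 8 of the 10 genes were well above background in every channel of every mouse. These were Ppara, Pparg, Rxra, Rxrb, Ppargc1a, Ppargc1b, Ncoa1 and Ncor1, each by at least 1 probe. Counted by probe, 12 of 21 were above background in all 16 channels, against 44.7% of all 41174 gene probes, and 2 were in none, against 31.8%. The receptors without a fully detected probe were Ppard and Rxrg.

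Ppard, the PPAR that is broadly expressed across tissues, was above background in all 8 channels of slide 2 and in 0 of 8 channels of slide 1. Each DEHP mouse and each vehicle mouse was therefore detected in its slide 2 channel and not in its slide 1 channel. The same split was found for 223 probes, 0.542% of the array, and the opposite split for 0 probes. Net brightness (foreground minus local background) of the Ppard spot ran from 4.3 to 32.4 over the DEHP channels and from 8.2 to 56.7 over the vehicle channels. These ranges overlap.

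Rxrg, the RXR known mainly from muscle and brain, was above background in 3 of 16 channels, all of them vehicle mice labelled with Cy5 on slide 2. None of the 8 DEHP channels passed. Because DEHP was labelled with Cy3 on that slide, this count sets one dye against the other as well as DEHP against vehicle, and these cannot be told apart. On the levels averaged over both dyes, Rxrg was 6.12, 6.21, 6.21 and 6.16 in DEHP mice 1 to 4, against 6.26, 6.20, 6.19 and 6.30 in vehicle mice 1 to 4, and the groups overlapped. Its pair ratios were -0.079, 0.015, -0.091 and -0.097, with a mean of -0.063 ± 0.053 (SD, n = 4). It failed the brightness filter and was tested only in the alternative without that filter, where limma gave an adjusted p of 0.944.

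Probes of a single gene differed in detection. The brighter Rxrb probe was above background in all 16 channels and the probe printed above in 2 of 16. The 3 Ppargc1b probes passed in 16, 12 and 1 of the 16 channels. Of 7 probes named Ncor1, 3 that lie on the strand of the gene passed in all 16 channels, and another on that strand, A_52_P244895, in 7. The other 3 lie on the opposite strand, and passed in 8, 0 and 0 channels, the probe with 8 being A_51_P457744.

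**Figure D1:**
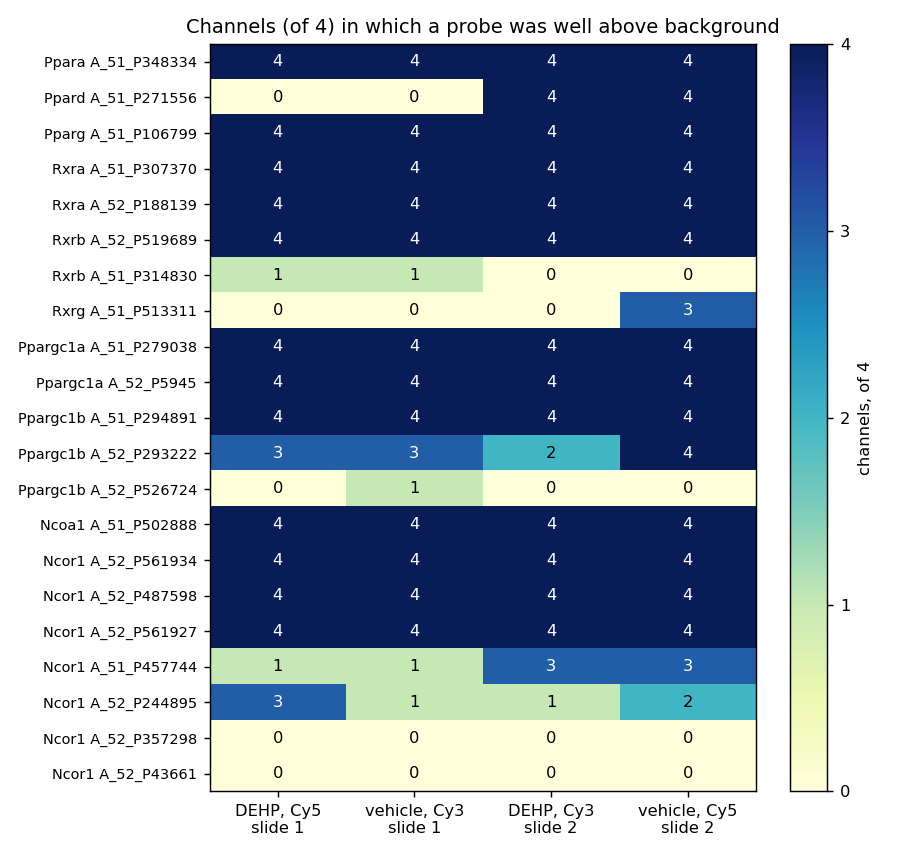
Number of channels, of 4, in which each of the 21 probes was well above background, by treatment, dye and slide. The 12 fully detected probes show 4 in all columns. Ppard shows 0 on slide 1 and 4 on slide 2, and Rxrg only the vehicle Cy5 column.

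No receptor or coregulator transcript passed the test between DEHP and vehicle mice. Of the 21 probes, 16 passed the brightness filter (at least 4 of 8 DEHP or 4 of 8 vehicle channels), against 55.8% of all gene probes, and they covered 9 of the 10 genes. In limma over 4 pairs, 0 of these 16 probes had an adjusted p under 0.05, with 0% of all 22975 probes called, and 0 had an unadjusted p under 0.05, against 5.18% of all probes. Adjusted p-values of the members ran from 0.922 to 0.991. The 95% intervals of their fold changes lay between 0.735 and 1.23, and the tests do not show that the groups were alike within that range. No kept member probe had DEHP and vehicle mice that did not overlap, which 1.96% of all probes had. All limma tests were 2-sided.

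**Figure D2:**
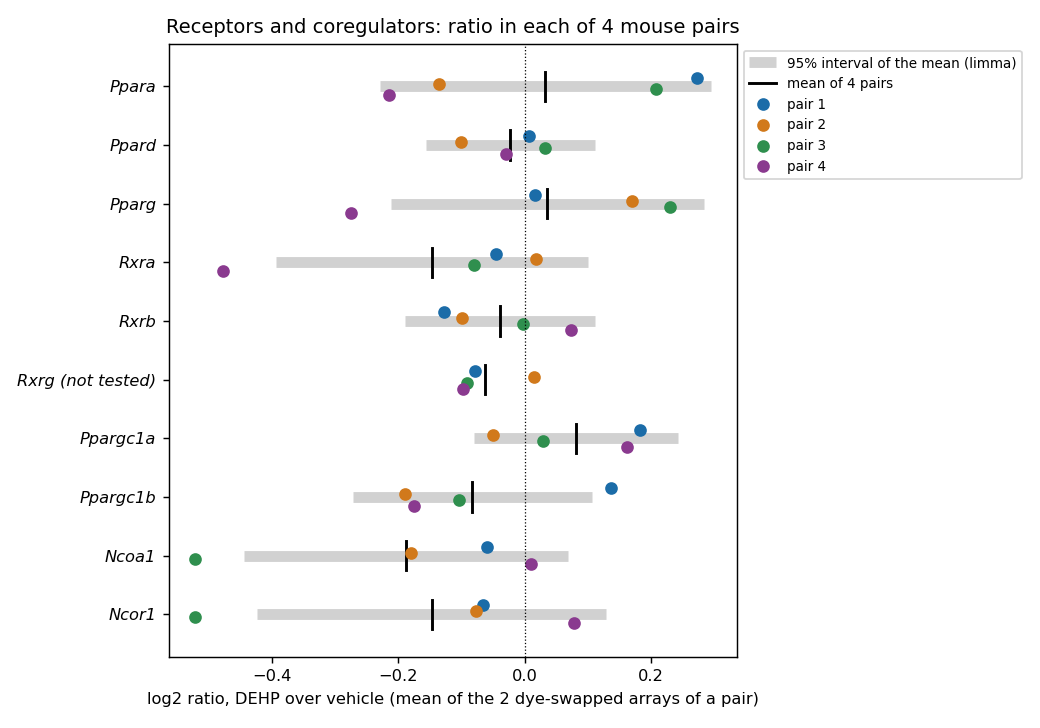
Log2 ratio of DEHP over vehicle in each of the 4 mouse pairs for the brightest probe of each gene; coloured points are pairs, black ticks their means and grey bars 95% intervals from limma. Every interval drawn for a tested gene crosses 0, and pair 3 lies at -0.52 for Ncoa1 and Ncor1 while pair 4 lies at -0.48 for Rxra.

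Ppara, the receptor through which peroxisome proliferators act in rodent liver, had log2 levels of 7.36, 7.67, 7.65 and 7.36 in DEHP mice 1 to 4, against 7.58, 7.08, 7.81 and 7.44 in vehicle mice 1 to 4. The vehicle mice held both the lowest and the highest value. The pair ratios were 0.27, -0.13, 0.21 and -0.21 for pairs 1 to 4, with 2 pairs above 0 and 2 below. Their mean was 0.033 ± 0.24 (SD, n = 4), and limma gave an adjusted p of 0.988.

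The Ppara probe was printed 10 times on each array. These repeat spots share 1 hybridisation, so their spread covers spot noise only. All 10 spots were above background in every channel. The SD over spots of one array was 0.036 to 0.072. With DEHP in Cy5, the spots of pair 1 averaged 0.32 and those of pair 3 averaged 0.33, while with DEHP in Cy3 they averaged 0.22 and 0.084. Pair 4 averaged -0.12 and -0.31 in the same 2 orientations, and pair 2 averaged 0.0089 and -0.28. Thus pairs 1 and 3 were above 0 and pair 4 below 0 in both orientations, and pair 2 was below 0 in one orientation only.

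Pparg, the receptor best known for adipocyte differentiation and the target of glitazones, had levels of 8.36, 8.31, 8.42 and 8.29 in DEHP mice, against 8.56, 8.34, 8.14 and 8.18 in vehicle mice. The DEHP mice lay inside the range of the vehicle mice. Pair ratios were 0.017, 0.17, 0.23 and -0.28, with a mean of 0.036 ± 0.23 (SD, n = 4) and an adjusted p of 0.986 in limma. Its 10 spots per array gave an SD of 0.045 to 0.10 over spots of 1 array, which again covers spot noise only. In pair 4, vehicle mouse 1 had the highest Pparg level of the 8 mice.

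**Figure D3:**
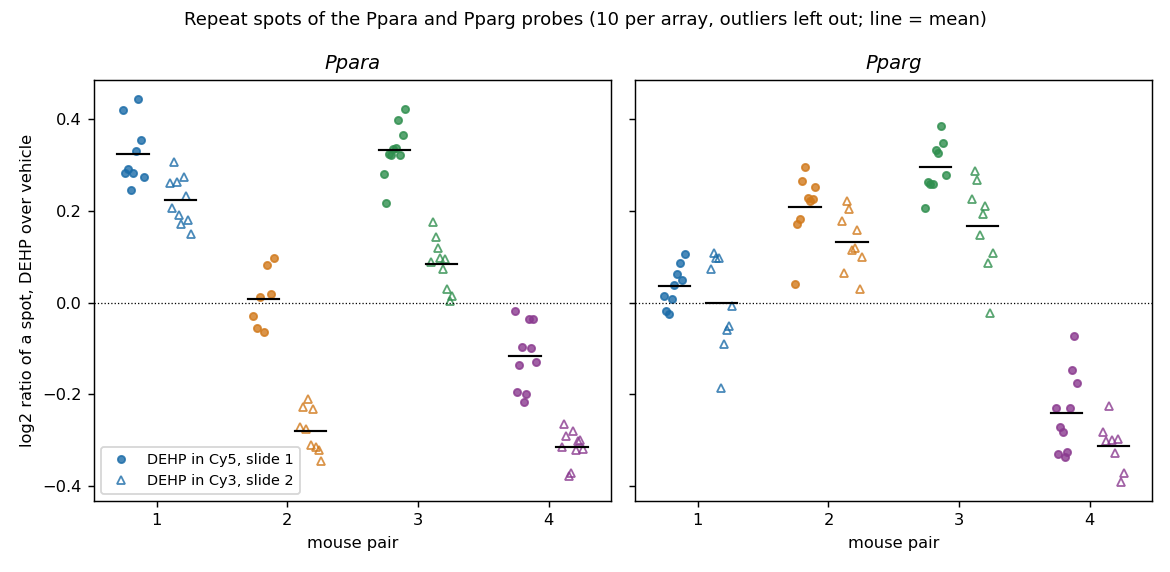
Log2 ratio of DEHP over vehicle for each repeat spot of the Ppara and Pparg probes (up to 10 per array), by mouse pair; filled circles are arrays with DEHP in Cy5 on slide 1, open triangles arrays with DEHP in Cy3 on slide 2, and black lines array means. For Ppara the array mean with DEHP in Cy5 lies above that with DEHP in Cy3 in all 4 pairs.

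Ppard levels were 6.24, 6.16, 6.22 and 6.25 in DEHP mice and 6.28, 6.23, 6.27 and 6.19 in vehicle mice. At this brightness near background, a ratio is compressed by the offset added before taking logs. Pair ratios were 0.0074, -0.10, 0.033 and -0.029, with a mean of -0.022 ± 0.058 (SD, n = 4) and an adjusted p of 0.981 in limma.

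Rxra, a common partner of PPARs, had the lowest mean ratios of the receptors on both of its probes. The brighter probe had levels of 9.20, 8.80, 9.10 and 9.21 in DEHP mice, against 9.69, 9.25, 8.78 and 9.18 in vehicle mice. Vehicle mouse 1 stood highest, and its pair gave the ratio of -0.48, while the pairs 1 to 3 had -0.046, 0.018 and -0.080. The mean was -0.15 ± 0.23 (SD, n = 4), with an adjusted p of 0.929 in limma. Without pair 4 the mean was -0.036.

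The second Rxra probe, A_52_P188139, was below 0 in 4 of 4 pairs at -0.18, -0.045, -0.22 and -0.072. That pattern was shared by 2 of the 16 kept member probes, the other being the opposite-strand probe A_51_P457744 of Ncor1, and by 6.96% of all probes tested. No member probe was above 0 in all 4 pairs, against 6.39% of all probes. The mean was -0.13 ± 0.083 (SD, n = 4), with an unadjusted p of 0.0734 and an adjusted p of 0.922 in limma, the smallest unadjusted p among the member probes. Both Rxra probes lie in the same direction, but they differ over which pair is lowest.

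Rxrb, the RXR expressed in most cells whose loss in mice disturbs Sertoli cells and spermatogenesis, had levels of 6.87, 6.95, 7.07 and 6.97 in DEHP mice, against 6.89, 6.99, 7.05 and 7.08 in vehicle mice. Pair ratios were -0.13, -0.10, -0.0031 and 0.074. The mean was -0.039 ± 0.093 (SD, n = 4), with an adjusted p of 0.966 in limma. It was -0.0097 without pair 1, -0.019 without pair 2 and -0.077 without pair 4.

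Ppargc1a encodes PGC-1alpha, a coactivator of PPARs and of the oestrogen-related receptors that drives mitochondrial genes. Its levels were 7.81, 7.43, 7.45 and 7.75 in DEHP mice, against 7.58, 7.63, 7.48 and 7.42 in vehicle mice. DEHP mice 1 and 4 stood above all 4 vehicle mice, and DEHP mice 2 and 3 lay within the vehicle range. Pair ratios were 0.18, -0.050, 0.029 and 0.16, with a mean of 0.081 ± 0.11 (SD, n = 4) and an adjusted p of 0.938 in limma. The second probe had the same 3 pairs above 0 and a mean of 0.049. Leaving out 1 pair gave 0.048 without pair 1, 0.13 without pair 2 and 0.054 without pair 4.

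Ppargc1b encodes PGC-1beta, the closest relative of PGC-1alpha. Its levels were 6.618, 6.595, 6.613 and 6.683 in DEHP mice, against 6.859, 6.480, 6.785 and 6.717 in vehicle mice. Pair ratios were 0.14, -0.19, -0.10 and -0.18, the mean was -0.083 ± 0.15 (SD, n = 4), and limma gave an adjusted p of 0.945. In the authors' deposited table, the same probe stood at 0.29, -0.46, -0.27 and -0.29 for pairs 1 to 4. The dimmer kept probe, A_52_P293222, stood at -0.044, 0.067, -0.13 and -0.062 for pairs 1 to 4, with a mean of -0.042. Its sign was opposite to that of the main probe in pairs 1 and 2. For the main probe, leaving out 1 pair gave -0.16 without pair 1, -0.047 without pair 2 and -0.052 without pair 4.

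Ncoa1 encodes SRC-1, a coactivator with histone acetyltransferase activity. Its levels were 9.94, 9.98, 9.63 and 10.29 in DEHP mice, against 10.28, 9.99, 10.16 and 10.15 in vehicle mice. DEHP mouse 3 was the lowest of the 8 and DEHP mouse 4 the highest. Pair ratios were -0.059, -0.18, -0.52 and 0.011, with a mean of -0.19 ± 0.24 (SD, n = 4) and an adjusted p of 0.922 in limma. Without pair 3 the mean was -0.076.

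Ncor1 encodes the corepressor that brings histone deacetylase 3 to unliganded receptors. By its brightest probe, A_52_P561934, levels were 9.98, 10.07, 9.66 and 10.28 in DEHP mice, against 10.21, 10.05, 10.15 and 10.18 in vehicle mice. The order of the DEHP mice was that of Ncoa1. Pair ratios were -0.066, -0.078, -0.52 and 0.078, with a mean of -0.15 ± 0.26 (SD, n = 4) and an adjusted p of 0.935 in limma. Without pair 3 the mean was -0.022, and without pair 4 it was -0.22.

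The other 2 fully detected Ncor1 probes were also low in pair 3, at -0.33 each. In the remaining pairs A_52_P487598 gave 0.23, -0.31 and 0.26 and A_52_P561927 gave -0.036, 0.086 and 0.078 for pairs 1, 2 and 4. The dim probe A_52_P244895 stood at -0.0059, 0.12, 0.20 and -0.19 for pairs 1 to 4. The 3 fully detected probes therefore shared the low value of pair 3 and differed elsewhere. Among probes of the brightness of the main Ncoa1 and Ncor1 probes, the median ratio in pair 3 was -0.028 and -0.030.

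The Ncoa1 probe and the brightest Ncor1 probe moved together over the 8 mice, although one gene encodes a coactivator and the other a corepressor. Pearson's r was 0.977 (exact permutation p = 9.92e-05, 2-sided; adjusted over the 36 pairs of member genes, 0.00357) and Spearman's rho was 0.952 (exact permutation p = 0.0011; adjusted 0.0411). Leaving out the 2 mice farthest from the median of Ncoa1 left r at 0.954. After subtracting from each gene the median level of probes of like brightness in the same mouse, r was 0.977. The mice of a pair share 2 arrays, so the 8 points are not fully independent, whereas the permutation p-values treat them as if they were. With the other 4 kept Ncor1 probes, r for Ncoa1 was 0.184 to 0.646. The correlation of the main probe was not found at that size with any of these. It was the only one of the 36 relations to pass after adjustment.

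Of 87 genes on the lists of related genes, the one most alike in level over the 8 mice was Crebbp for Ncoa1 (r = 0.868) and Sin3a for Ncor1 (r = 0.858). For the receptors it was Fabp1 for Ppara (r = 0.881), Slc25a20 for Ppard (0.697), Adipoq for Pparg (0.883), Nr1i3 for Rxra (0.841) and Aldh1a2 for Rxrb (0.684). For the PGC-1 genes it was Nr1h2 for Ppargc1a (0.875) and Fabp7 for Ppargc1b (0.870). Each r is the highest of 87 over 8 mice that share arrays in pairs, and is a description. Against the mean levels of 9 lists of cell type markers, r of the members ran from -0.805 to 0.639, and 0 of 81 relations passed adjustment (smallest adjusted exact permutation p = 0.961).

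Different ratios in the 2 dye orientations were common across the array, and the member probes were no exception. The ratio with DEHP in Cy5 differed from that with DEHP in Cy3, at an adjusted p under 0.05 in limma, for 7 of the 16 kept member probes, where 46.3% of all probes did. For the brighter Rxra probe the mean was -0.013 on the arrays with DEHP in Cy5 against -0.28 on the swapped arrays, a difference of 0.27 (adjusted p 0.000231). With DEHP in Cy5, 3 of 4 arrays were above 0, against 0 of 4 swapped arrays. For Ppara the means were 0.14 and -0.071, a difference of 0.21 (adjusted p 0.0015). For the second Ppargc1a probe, A_52_P5945, they were 0.19 and -0.092 (adjusted p 0.000107). Averaging the 2 orientations cancels a dye effect that is equal in both, and the pair means above carry that average.

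The other coactivators of nuclear receptors lay mostly below 0. Of 17 listed genes, 16 were tested, 14 were below 0, and their median log2 ratio was -0.12. Of all 14308 genes tested, 50.6% were below 0 and the median was -0.0014. The list was chosen with earlier results of these data known, and its genes were measured in the same 4 pairs. The count is therefore a description. Ep300, a histone acetyltransferase, was below 0 in every pair at -0.24, -0.19, -0.26 and -0.16, with a mean of -0.21 ± 0.048 (SD, n = 4). Its unadjusted p in limma was 0.0081 and its adjusted p 0.922. Carm1, an arginine methyltransferase that works with p160 coactivators, was at -0.11, -0.10, -0.44 and -0.39, with a mean of -0.26 ± 0.18 and an unadjusted p of 0.0243.

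In this list 0 of 16 genes passed the adjusted test and 4 had an unadjusted p under 0.05 in limma, all lower, against 2.78% of all genes, while 0 were higher at that level, against 2.28% of all genes. Beside Ep300 and Carm1, these were Crebbp, the close relative of Ep300, and Prdm16, which were chosen for naming after their values were seen. Crebbp had a mean of -0.32 and Prdm16 of -0.24. In 3 of 16 genes (Ep300, Carm1 and Crebbp) all 4 pairs were below 0, against 6.38% of all genes. By pair, 12, 9, 14 and 8 of the 16 were below 0 in pairs 1 to 4, with medians of -0.17, -0.070, -0.28 and -0.00018. Without pair 3 the median was -0.068 with 13 of 16 below 0, and 1 gene had an unadjusted p under 0.05. With all 4 pairs, the number of such genes also depended on the processing and on the model. It was 1 with median centring and 2 with the Agilent ratio. With the 8 arrays as separate values it was 5, but that fit counts the dye-swapped arrays of a pair as independent.

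Of the 9 marker lists, that of Leydig cells differed most between pairs, with median ratios of -0.19, 0.98, -0.79 and -0.25 for pairs 1 to 4 over 9 genes. The coactivator medians were -0.070 in pair 2, where the Leydig markers were highest, and -0.28 in pair 3, where they were lowest. In pairs 1 and 4, with Leydig medians of -0.19 and -0.25, the coactivator medians were -0.17 and -0.00018. Of 16 tested spermatocyte markers, 4 were above 0, with a median of -0.072 and a pair 3 median of -0.091. Of 9 tested spermatogonia markers, 2 were above 0, with a median of -0.090 and a pair 3 median of -0.036. Of 23 tested Sertoli cell markers, 19 were above 0, with a median of 0.047 and a pair 3 median of -0.070. Of all genes tested, 49.4% were above 0. Round spermatid markers had medians of 0.17, 0.19, -0.097 and -0.34 for pairs 1 to 4. Elongating spermatid markers had -0.44, 0.038, 0.12 and 0.26. The part of these marker differences in the coactivator values was not tested.

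**Figure D4:**
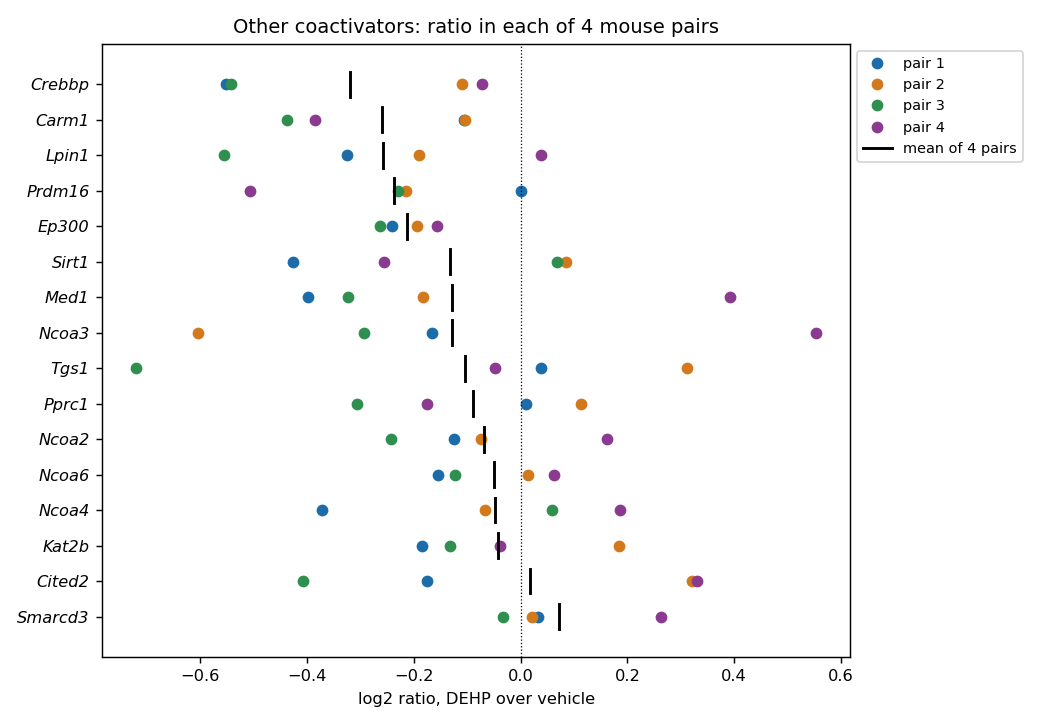
Log2 ratio of DEHP over vehicle in each of the 4 mouse pairs for the 16 other coactivators tested, ordered by their mean (black ticks). Means of 14 of the 16 genes lie below 0, and pair 3 is below 0 for 14 of the 16.

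No gene of the remaining lists passed the test. Of 40 listed PPAR target genes, which include enzymes of fatty acid oxidation, 31 were tested. Above background in all 16 channels were 25 of the 40, and 3 were in none. Over all gene probes of the array these shares were 44.7% and 31.8%, counted by probe and not by gene. Of the 31 tested, 15 were above 0, with a median of -0.0025, and limma called 0 in either direction. At an unadjusted p under 0.05 there were 0, against 2.28% of all genes higher and 2.78% lower. The 2 with the smallest p were Ucp2, a mitochondrial uncoupling protein, at a mean of 0.30 ± 0.30 (SD over the pairs), and Plin2, a lipid droplet coat protein, at -0.16 ± 0.17. Their unadjusted p-values in limma were 0.0555 and 0.0947. Genes of ligand and coenzyme supply had 6 of 14 above 0 and a median of -0.029, led by Lipe, hormone-sensitive lipase, at 0.25 ± 0.28 and Acsl6, an acyl-CoA synthetase, at -0.23 ± 0.36. Without pair 2 the median of this list was -0.13 with 3 of 14 above 0, and without pair 1 it was -0.00036. With each pair left out in turn, the PPAR target median ran from -0.026 to 0.033.

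Other RXR partners had 4 of 10 above 0 and a median of -0.011. Nr1h2, the liver X receptor beta, had a mean of 0.12 ± 0.10, and Vdr, the vitamin D receptor, had 0.065 ± 0.063. Both were above 0 in all 4 pairs, as were 6.39% of all probes. The genes named have the smallest p of their list, which favours 1 sign in every pair, so that share is not a like comparison. Partners of PGC-1 had 6 of 10 above 0 and a median of 0.058. Esrrg, an oestrogen-related receptor, was at 0.12 ± 0.057, also above 0 in all 4 pairs, and Mef2c, a MADS-box factor, at 0.14 ± 0.13. Other corepressors had 4 of 6 above 0 and a median of 0.026, with Tbl1xr1, a subunit of the NCoR complex, at -0.22 ± 0.31 and Gps2, another subunit, at 0.091 ± 0.22. With each pair left out in turn, the medians ran from -0.013 to -0.00098 for RXR partners and from -0.027 to 0.055 for corepressors. For PGC-1 partners the median was 0.010 without pair 1, 0.017 without pair 3 and 0.014 without pair 4. None of the genes named in these 5 lists had an unadjusted p under 0.05 in limma, and their adjusted p-values were 0.922 or higher.

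The authors' deposited table of log2 ratios held 11 of the 21 member probes, for 8 genes, and all 4 pairs for 8 of these probes. In the authors' deposited table, the main Ncor1 probe stood at -0.058, -0.070, -0.55 and 0.070 for pairs 1 to 4, and pair 3 of Ncoa1 was -0.54. In the authors' deposited table, Ppara stood at 0.46, -0.18, 0.33 and -0.30. Rxrb stood at -0.27, -0.23, 0.037 and 0.082 in the authors' deposited table, where pair 3 has the opposite sign to the value above.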

How the data were processed

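Laser-captured testis RNA of 4 DEHP and 4 vehicle mice was measured on 8 2-colour Agilent arrays. Per the file headers, Feature Extraction 9.5.1.1 wrote the mean and background intensity of each spot and a processed log10 ratio, with design positions in mm7. A second file, the log2 ratios deposited by the authors, has no stated direction, and direction and row match were found from the values (r = 0.943 to 0.972 with the scanner ratio as DEHP over vehicle). Its scale, centring and filter are not given in the sources used here. In R 4.3.3 with limma 3.58.1 (with statmod 1.5.0 and version 1.17.8 of data.table), mean and background intensities as deposited were corrected with normexp (offset 50), normalised by loess within arrays and turned to log2 DEHP over vehicle. Control spots and spots marked as outliers were left out. Spots whose local background was marked non-uniform were kept out of the normexp fit, a choice made after seeing the data. Spots of a probe and then the 2 dye-swapped arrays of a pair were averaged, and limma tested the 4 pairs over 22975 probes with Benjamini-Hochberg adjustment. Pairing comes from the labels, and swapped arrays of a pair correlated at r = 0.594 to 0.731. A probe was kept when well above background in at least 4 of 8 channels of a group, and the brightest kept probe stands for a gene. Levels of a mouse are its normalised log2 intensities over both dyes, and are compared within a probe only.

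All 10 members are named, and of each list of related genes the 2 with the smallest unadjusted p. Members and lists were chosen with earlier results of these data known. Of the probes, 22951 were matched to current gene names by accession, 6659 by symbol, 3109 by synonym and 8455 not at all. On simulated data with 200 of 22897 probes changed, 0% were recovered at a 1.19-fold change, 44% at 1.41-fold and 95.5% at 2-fold. The simulation drew independent normal noise for each probe, with the spread estimated by limma, and an equal change in every pair. Shifts that genes share within a real pair, as the Leydig markers had, were not simulated, so these shares may not hold for the real data. The number of mouse pairs limits the precision, since the 2 arrays of a pair measured the same mice. Alternatives covered background correction, normalisation, filters, dye orientation, pairing, weights, the variance model, the authors' table and leaving out each pair.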

Additional observations from a re-analysis of the deposited data

Results flagged for a closer look

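The ratio of DEHP over vehicle differed between the dye orientations, in limma with adjustment over all probes, for 7 member probes, and orientation and slide cannot be told apart. DEHP in Cy5 minus DEHP in Cy3 was 0.21 for Ppara, 0.27 for Rxra (A_51_P307370), -0.14 for Rxrb (A_52_P519689), 0.28 for Ppargc1a (A_52_P5945) and 0.16 for Ncoa1. For Ncor1 it was 0.24 with A_52_P487598 and 0.12 with A_52_P244895. Of all probes, 46.3% differed in this way, so the difference was not particular to these genes.

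One mouse stood apart from its group. DEHP mouse 1 had a level of 6.16 for the Ncor1 probe A_52_P244895, far from the other 3 DEHP mice relative to their range. Chance gives about 5% of groups such a sample, or 2.4 of the 48 groups examined, and 1 was found.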

How the results depend on the processing

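No member probe passed the adjusted test under any of the 20 settings run. Over all probes the count was 0 except for 84 with no replicate block (8 arrays as separate values with a dye term), where the smallest adjusted p of a member was 0.182. With the replicate block as a random effect it was 0. Of 195 comparisons of a member gene's ratio with its value above, 11 changed sign and 1, of Rxrg, moved by more than its SD over pairs. The other 183 kept their sign or, for Rxrg, stayed within that SD. For the tested genes only the sign was compared, not the size. Ppard, at -0.022 above, ran from -0.10 to 0.084 over the alternatives. Ppard was 0.030 without background correction, 0.084 with the Agilent ratio and 0.0086 with DEHP in Cy5 only. With DEHP in Cy3 only, Ppara was -0.071, Pparg -0.0035 and Rxrb 0.032. Leaving out each pair in turn gave -0.047 to 0.12 for Ppara, -0.041 to 0.0038 for Ppard and -0.029 to 0.14 for Pparg. The cause was not tested. Rxrg moved to -0.18 at a normexp offset of 0. Member probes differing between dye orientations numbered 4 with the Agilent ratio (38.9% of all probes), 12 with median centring (80.3%), 4 with normexp fitted on all spots (30.8%, chosen after seeing the data) and 4 to 7 when each pair was left out. The coactivator median stayed between -0.16 and -0.068. With DEHP in Cy3 only, the median of PGC-1 partners was -0.0002. Genes of ligand and coenzyme supply had a median of 0.014 with median centring and -0.044, with 2 of 14 above 0, with normexp fitted on all spots. Near background, as for Ppard and Rxrg, signal limits what a ratio can show.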
